A study of Homo sapiens with 14 samples.

Results

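The genes described here are 9 members of the Notch pathway, chosen by name with earlier results of these data known. They are the receptors NOTCH1, NOTCH2 and NOTCH3, the ligands JAG1, JAG2 and DLL1, and the target genes HES1, HEY1 and HEYL. They stand among 24344 genes listed in all 3 kinds of deposited table. Their RNA was followed through all 7 groups of an mRNA sequencing study of IMR90, primary human fetal lung fibroblasts. Its cultures I79 and I10 are separate isolates, both of them sampled while proliferating (young) and again after passaging until replicative senescence (old). Cells of I79 were in addition exposed to inflachromene (ICM), a compound that binds HMGB1 and HMGB2, high-mobility-group proteins of chromatin; the labels give neither its dose nor its duration. In a separate experiment, wild type cells (WT) were set beside cells in which HMGB2 had been depleted with siRNA (HMGB2 KD), and the isolate used there is not named. All groups share the IMR90 background, so that both isolates are IMR90 cultures.

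Notch receptors are single-pass membrane proteins that bind ligands of the Jagged and Delta-like families on neighbouring cells. Ligand pulling exposes the receptor to the protease ADAM10 and then to gamma-secretase, which frees an intracellular domain. That domain enters the nucleus, joins the DNA-binding protein RBPJ and a Mastermind-like co-activator, and switches on genes of the HES and HEY families, which encode transcriptional repressors. In the lung, NOTCH3 is best known from the smooth muscle cells and pericytes around vessels, and JAG1 from signalling between vessel wall cells, while fibroblasts use the pathway in matrix production and contraction. In cultures driven into senescence by an oncogene, NOTCH1 activity is known to change over time and to alter the secreted factors.

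Promoter sequences are shown for the 3 members whose RNA passed the test after HMGB2 knockdown and for HEYL, since RBPJ carries the Notch signal to DNA and its recognition core is a fixed run of letters. RefSeq promoter windows on GRCh38.p14 were found for 7 of the 9 members, and HEY1 and DLL1 are without an entry. The 250 bases before the start of the gene were searched on both strands for TGGGAA, the core of the RBPJ site, which reads TTCCCA on the other strand. Capitals mark each match, all other bases are in lower case, and every sequence is written 5′ to 3′ on the strand of the gene.
HES1: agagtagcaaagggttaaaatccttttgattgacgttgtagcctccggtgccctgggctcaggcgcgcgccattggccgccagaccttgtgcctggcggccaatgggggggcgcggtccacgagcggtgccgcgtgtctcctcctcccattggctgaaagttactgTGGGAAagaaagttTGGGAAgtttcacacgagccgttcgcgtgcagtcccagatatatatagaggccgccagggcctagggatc
HEYL: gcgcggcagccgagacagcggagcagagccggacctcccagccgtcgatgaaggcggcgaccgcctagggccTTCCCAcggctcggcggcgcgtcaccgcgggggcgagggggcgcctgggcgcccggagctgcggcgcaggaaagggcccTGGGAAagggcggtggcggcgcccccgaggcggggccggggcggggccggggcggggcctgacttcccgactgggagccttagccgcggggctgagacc
NOTCH3: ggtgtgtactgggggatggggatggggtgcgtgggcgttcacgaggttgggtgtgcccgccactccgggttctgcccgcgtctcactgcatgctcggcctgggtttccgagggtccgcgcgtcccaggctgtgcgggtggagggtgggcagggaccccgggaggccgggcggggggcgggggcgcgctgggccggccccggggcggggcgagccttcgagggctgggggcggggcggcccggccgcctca
JAG1: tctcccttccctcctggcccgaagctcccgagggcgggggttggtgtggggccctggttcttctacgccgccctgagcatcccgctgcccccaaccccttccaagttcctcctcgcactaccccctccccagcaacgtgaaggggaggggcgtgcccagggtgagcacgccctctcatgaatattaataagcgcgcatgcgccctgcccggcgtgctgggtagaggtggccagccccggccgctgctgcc
The windows lie at chr3:194135898-194136147 on the plus strand for HES1, chr1:39639644-39639893 on the minus strand for HEYL, chr19:15200996-15201245 on the minus strand for NOTCH3 and chr20:10674000-10674249 on the minus strand for JAG1. HES1 held 2 matches in the same orientation, whose first bases were at positions -84 and -70 relative to the start. HEYL held 2 matches in opposite orientation, with their leftmost bases at positions -178 and -99. NOTCH1, NOTCH2, NOTCH3, JAG1 and JAG2 held none in this window. Over all 35116 promoters of the table, 20.8% held at least 1 match and 2.90% held 2 or more. A match is a run of letters and not a shown binding site, and its absence from 250 bases says nothing about more distant elements.

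The 4 young and old tables held between 14991385 and 20632959 estimated counts and gave 1 table for each isolate and age although the sample titles list 2 replicates, so the isolates served as replicates with 1 residual degree of freedom. The WT and HMGB2 KD libraries, 2 per group, held between 33561766 and 41168932 counts, and the 2 ICM libraries 13290131 and 10971132. Nothing in the labels says that the 2 libraries of a group came from separate cultures, so p-values measure only the spread between these libraries. HMGB2 itself fell from 27.1 and 27.4 CPM (read counts scaled to library depth) in the WT libraries to 3.22 and 3.64 after knockdown, with a log2 fold change of -2.99 (adjusted p = 8.3e-07, edgeR quasi-likelihood test). All 10 fibroblast markers were above 1 CPM in every library and table. The endothelial cadherin CDH5 had no read in any of them, but other endothelial markers did. Of the 8 listed in all tables, 3 to 5 were above 1 CPM in each library or table. TEK, for example, read 66.0 and 79.9 CPM in the WT libraries. In bulk RNA, fewer cells of a type and less RNA per cell cannot be told apart.

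**Figure D1:**
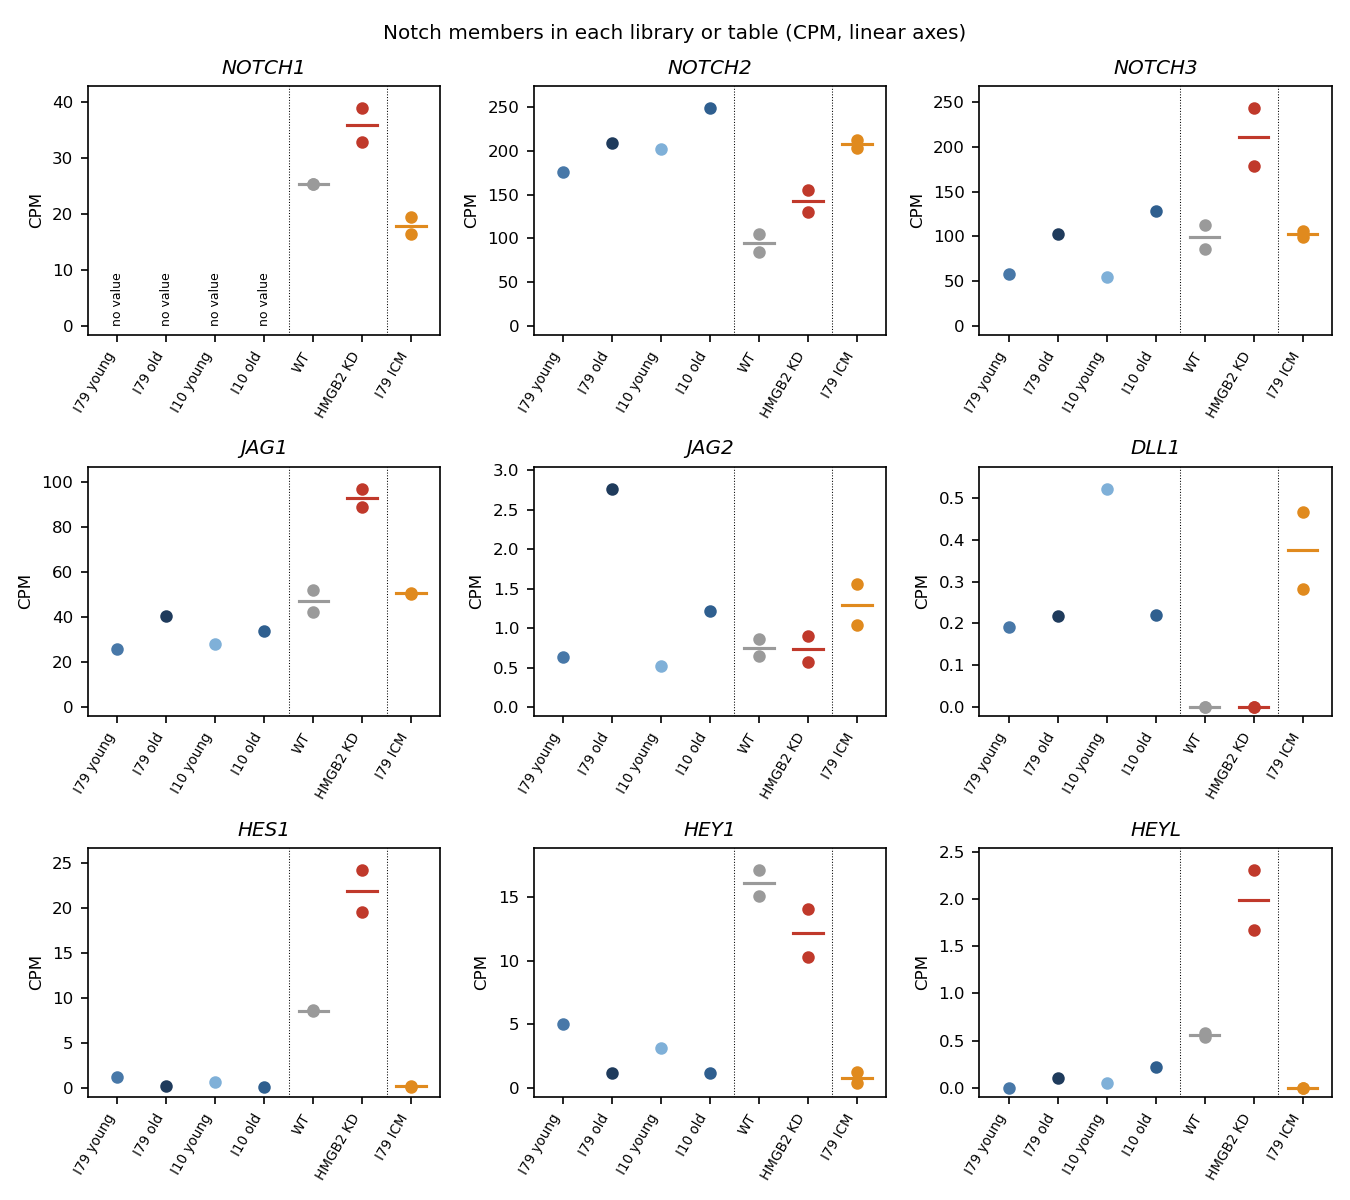
CPM of each of the 9 Notch members (1 panel each, linear axes) in the 7 groups; points are libraries or, for the young and old groups, single tables, and short lines are means of 2 libraries. CPM is scaled with TMM to the left of the second dotted line and by library totals over shared genes for ICM, the dotted lines separate tables counted in different ways, NOTCH3 is higher in old than in young cells and in HMGB2 KD than in WT, and HES1 is higher in HMGB2 KD than in WT and lower in old than in young cells.

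The knockdown comparison asked which members differ between cells treated with siRNA against HMGB2 and WT cells. The sample titles name the control only as WT and no control siRNA, so loss of HMGB2 and siRNA treatment as such cannot be told apart. After HMGB2 knockdown the receptor NOTCH3, the ligand JAG1 and the target HES1 rose by about 2-fold or more. HEYL had the largest fold change of the members tested but did not pass the threshold, and HEY1, the third target, lay lower. A gene was called when the adjusted p was under 0.01 and the log2 fold change was over 0.6 in size; 3 of the 8 members tested were called, all higher, whereas 5.20% of the 15338 genes tested were called and 2.86% were called higher. The median log2 fold change was 0.78 over the 8 members and 0.00 over all genes. Because the members were chosen with earlier results of these data known, these counts and medians are a description and not a test of the pathway.

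NOTCH3 (chromosome 19, 15269849 to 15311806, minus strand, GRCh37) read 85.6 and 113 CPM in the WT libraries, against 179 and 243 after knockdown. Both knockdown libraries were above both WT libraries, and the log2 fold change was 1.09 (standard error 0.17, adjusted p = 0.0012, edgeR). Without HMGB2 KD replicate 2 it was 0.85 and the adjusted p was 0.012, so the call was lost without that library. NOTCH2 (chromosome 1, 120454176 to 120643366, minus strand) read 84.9 and 104 CPM in the WT libraries, against 131 and 155 after knockdown. Its groups did not overlap either, but its log2 fold change of 0.59 (standard error 0.14, adjusted p = 0.017) missed both thresholds, that of size narrowly. Without WT replicate 2 it was 0.74 with an adjusted p of 0.0094 and was called. NOTCH1 (chromosome 9, 139388885 to 139440500, minus strand) read 25.3 CPM in both WT libraries and 32.8 and 38.9 CPM in HMGB2 KD, a log2 fold change of 0.50 (standard error 0.14, adjusted p = 0.033). All 3 receptors were thus higher in both knockdown libraries than in both WT libraries, and the call was made for NOTCH3. Long noncoding RNAs are annotated on the opposite strand within NOTCH1, NOTCH2, JAG1 and HEYL, and the coding gene FAM120B overlaps DLL1. The use of strand in the counting is not stated, so reads from such pairs cannot be told apart.

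Among the ligands, JAG1 (chromosome 20, 10618332 to 10654647, minus strand) read 42.3 and 52.2 CPM in the WT libraries, against 89.2 and 97.1 after knockdown. The groups did not overlap, and the log2 fold change was 0.98 (standard error 0.14, adjusted p = 0.00048). JAG2 (chromosome 14, 105607319 to 105635161, minus strand) stood at 0.643 and 0.857 CPM without and 0.574 and 0.903 CPM with knockdown, so that the libraries overlapped; its log2 fold change was -0.02 (standard error 0.53, adjusted p = 0.99). Between 21 and 36 reads stood behind each JAG2 value, a depth at which a change of the size seen for JAG1 was not detectable. DLL1 (chromosome 6, 170591294 to 170615653, minus strand) had 0 reads in all 4 libraries and was not tested. For counting error alone, 0 reads allow a level of at most 0.0729 to 0.0894 CPM per library. How reads on its overlap with FAM120B were counted is not stated, so these values are not shown to bound the DLL1 RNA itself.

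The target genes differed in direction. HES1 (chromosome 3, 193853937 to 193856521, plus strand), the classical early target that represses its own transcription, read 8.62 and 8.54 CPM in the WT libraries, against 19.6 and 24.2 after knockdown. The WT libraries were nearly equal and both knockdown libraries lay above them, with a log2 fold change of 1.35 (standard error 0.16, adjusted p = 0.00017). HEYL (chromosome 1, 40089107 to 40105315, minus strand) had 20 reads in each WT library (0.584 and 0.536 CPM) and 61 and 92 reads after knockdown (1.67 and 2.31 CPM). Its log2 fold change was 1.82 (SE 0.43) and its adjusted p of 0.014 lay above the threshold of 0.01; DESeq2 gave 0.0079, the fit with no filter on low counts 0.00051 and the fit with replicate numbers as a block 0.00058, and each called it. HEY1 (chromosome 8, 80674606 to 80680092, minus strand) read 17.1 and 15.0 CPM in the WT libraries, against 14.1 and 10.3 after knockdown. Both knockdown libraries were below both WT libraries, but the log2 fold change of -0.40 (standard error 0.18, adjusted p = 0.18) did not pass the test. Over all members, the libraries of the groups did not overlap for 7 of 8, compared with 53.7% of all genes tested. Both knockdown libraries were above both WT libraries for 6 of 8, compared with 27.4%. Given how the members were chosen, these shares too are a description.

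NOTCH3 is also a marker of mural cells, the smooth muscle cells and pericytes of vessel walls, so the markers of that cell type were read beside it. Of 6 mural markers tested, CNN1 and CSPG4 were called higher, with log2 fold changes of 1.77 and 0.97 (adjusted p = 5.6e-05 and 0.0067, edgeR). Over all genes 2.86% were called higher. None was called lower, beside 359 of 15338 genes. Without a call, NDUFA4L2 gave 1.14, ABCC9 0.55 and KCNJ8 -0.45 (adjusted p = 0.024, 0.69 and 0.32, edgeR). The median over the 6 was 0.76. The summed level of all 9 mural markers was 683 and 533 CPM over shared genes in WT and 588 and 368 in HMGB2 KD, most of it from RGS5, which gave a log2 fold change of -0.49 (adjusted p = 0.24). MYH11, a defining smooth muscle gene, had 0 reads in all 4 libraries. It had 504 and 547 estimated reads in the young tables and 133 and 109 in the ICM libraries. These were counted in another way, so culture and counting cannot be told apart, and the 0 reads are not shown to bound MYH11 RNA. In old against young cells, where NOTCH3 was called higher as well, 0 of 8 mural markers tested were called higher and 1 was called lower. Over all genes 5.66% were called higher, and 559 of 15135 were called lower. The marker called lower was MYH11, at -3.24 (adjusted p = 0.0034, edgeR). CSPG4 and CNN1 gave 0.90 and 0.68 there without a call, and the median over the 8 was -0.54. The part of mural marker genes in the NOTCH3 results was not tested.

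**Figure D2:**
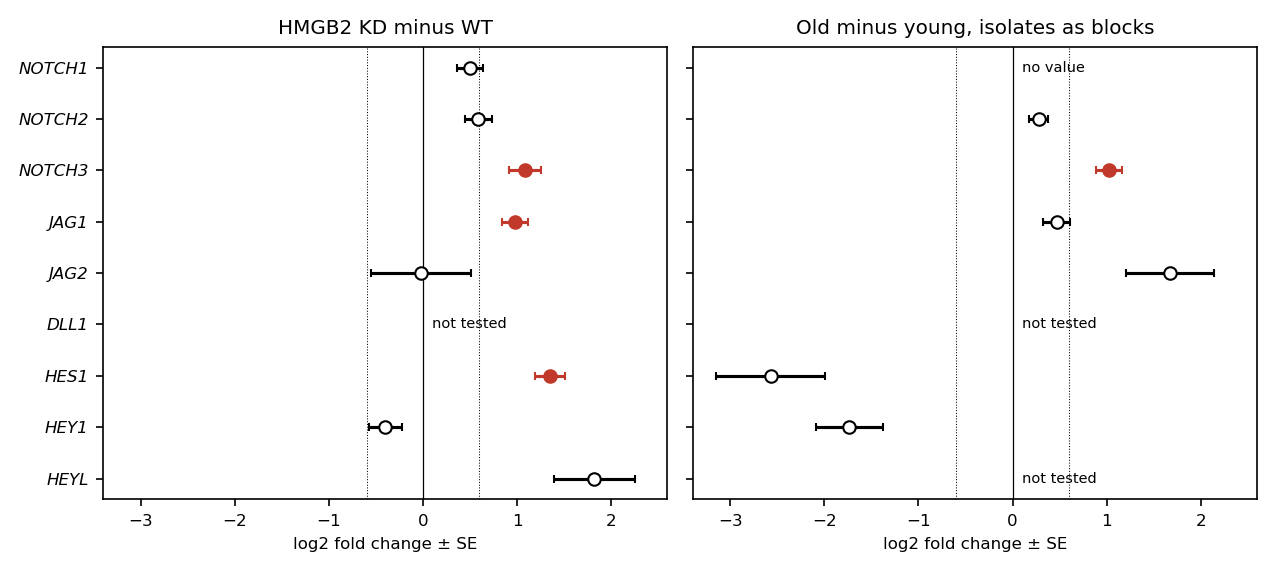
Log2 fold change of each member with its SE in HMGB2 KD against WT (left, 2 against 2 libraries) and in old against young cells (right, 2 isolates); filled red points were called and dotted lines mark 0.6 in size. NOTCH3, JAG1 and HES1 are filled on the left and NOTCH3 on the right, and HES1 lies at 1.35 on the left and at -2.57 on the right.

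The comparison of old with young cells asked what changes when the isolates reach replicative senescence. NOTCH3 RNA rose in old cells of both isolates and was called. The ligands JAG1 and JAG2 were higher and the targets HES1 and HEY1 lower in both isolates, and these differences did not pass the threshold. HES1 passed the filter on low values through the young tables alone, where it was higher, so the selection by the filter bears on its test and no count over the members is read as support. Of the 6 members that passed the filter, 1 was called, whereas 9.35% of the 15135 genes tested were called. None of these 6 had opposite signs in the isolates, compared with 19.1% of all genes tested. At an adjusted p under 0.05, which 25.4% of all genes passed with the same size threshold, HEY1 was added, and so was HES1 with the limit just given. NOTCH1 has no value in these tables, because the full-length coding transcript that the annotation names for it is not listed there under that identifier and the retained-intron transcripts that are listed held at most 27.6 reads.

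NOTCH3 read 58.3 CPM in young and 102 CPM in old I79 cells, and 54.6 and 129 CPM in those of I10. Both old tables were above both young tables, and the log2 fold change was 1.03 (standard error 0.14, adjusted p = 0.0097, edgeR), just under the threshold. Within the isolates, with intervals that cover counting error only, the log2 ratio was 0.81 in I79 (95% interval 0.70 to 0.93) and 1.24 in I10 (1.13 to 1.35). The intervals do not overlap, and the difference between isolates was not tested since each gave 1 table per age. NOTCH2 read 176 CPM in young and 209 CPM in old I79 cells, and 201 and 249 CPM in those of I10. The old table was the higher one within each isolate and the log2 fold change was 0.28 (standard error 0.10, adjusted p = 0.11). NOTCH2 shares nearly identical sequence with the NOTCH2NL genes, of which NOTCH2NLA was estimated at 14.2 and 16.9 CPM in young and at 24.1 and 22.4 CPM in old tables, so reads may be split between them.

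JAG1 read 25.7 CPM in young and 40.7 CPM in old I79 cells, and 28.0 and 33.9 CPM in those of I10. The log2 ratio was 0.67 in I79 (95% interval 0.49 to 0.85) and 0.28 in I10 (0.11 to 0.44), a difference that was not tested, and the joint log2 fold change was 0.47 (standard error 0.15, adjusted p = 0.067). JAG2 had 10 reads in young and 51 in old I79 cells, and 10 and 22 reads in those of I10, levels of 0.640, 2.77, 0.521 and 1.22 CPM. The log2 ratio was 2.11 in I79 (1.12 to 3.26) and 1.22 in I10 (0.08 to 2.46), with a joint log2 fold change of 1.68 (standard error 0.47, adjusted p = 0.052). DLL1 had 3, 4, 10 and 4 reads in the same order, did not pass the filter, and had counting intervals of -2.39 to 2.95 in I79 and -3.36 to 0.56 in I10, so that no change was detectable at this depth.

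HES1 had 20 reads in young and 4 in old I79 cells, and 14 and 2 reads in those of I10. Both old tables lay below both young tables, with log2 ratios of -2.56 in I79 (95% interval -4.57 to -0.98) and -2.72 in I10 (-5.90 to -0.60) and a joint log2 fold change of -2.57 (standard error 0.58, adjusted p = 0.031). HEY1 had 79 reads in young and 22 in old I79 cells, and 61 and 22 reads in those of I10. Its log2 ratio was -2.08 in I79 (-2.84 to -1.39) and -1.39 in I10 (-2.16 to -0.66), and the joint log2 fold change was -1.73 (standard error 0.36, adjusted p = 0.026). Both genes were therefore at or under 5.06 CPM in every young table and at or under 1.22 CPM in every old one. HEYL had 0, 2, 1 and 4 reads and did not pass the filter. At a log2 CPM change over 0.6 in size (prior count 2), 5 of 6 members passed in I79 and 4 of 6 in I10, compared with 41.2% and 37.3% of all genes. HES1 is among them and passed the filter on low values only through the young tables, so these counts are a description. NOTCH3, JAG2, HES1 and HEY1 did so in both isolates and JAG1 in I79 alone, although the difference between isolates was not tested.

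The young tables of the isolates gave a measure of how far cultures of 1 state differ. HES1 and HEY1 were past 0.6 between I10 young and I79 young, 2 of 6 members, whereas 8.24% of all genes were. The log2 ratio of I10 to I79 was -0.80 for HES1 (95% interval -1.90 to 0.26) and -0.66 for HEY1 (-1.16 to -0.16). Both were smaller in size than the drop from young to old within either isolate. NOTCH3 differed by -0.08 (-0.21 to 0.05) and JAG1 by 0.14 (-0.05 to 0.33) between the young tables.

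ICM-treated I79 cells were set beside untreated I79 young cells, with WT cells as a further reference, and no test was made because the tables were counted in different ways. Treatment and counting cannot be told apart here. The log2 ratios largest in size were those of the target genes HES1 and HEY1, which had few reads after ICM. HES1 had 2 and 3 reads in the ICM libraries and 20 in I79 young, or 0.156 and 0.283 against 1.46 CPM over shared genes; the log2 ratio of the pooled ICM reads was -2.78 (95% counting interval -4.55 to -1.32). HEY1 had 5 and 13 reads against 79, or 0.389 and 1.22 against 5.77 CPM, a log2 ratio of -2.91 (-3.74 to -2.16). HEYL had no read in either ICM library or in I79 young, and no ratio can be given. Both ICM libraries were below I79 young and below both WT libraries for HES1 and for HEY1. The untreated references were themselves far apart: HES1 was at 9.36 and 9.27 CPM and HEY1 at 18.6 and 16.3 CPM in WT, which on the scale of log2 CPM with a prior count of 2 was 2.602 and 1.58 above I79 young, beside -2.37 and -2.89 for ICM against I79 young.

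NOTCH3 was at 106 and 99.1 CPM after ICM and at 66.6 CPM in I79 young, a log2 ratio of 0.63 (0.52 to 0.74). JAG1 was at 50.5 and 50.8 CPM and at 29.3 CPM, a log2 ratio of 0.79 (0.62 to 0.96). The WT libraries, which had received no ICM, overlapped with the ICM libraries for both genes: NOTCH3 was at 93.0 and 123 CPM and JAG1 at 46.0 and 56.6 CPM in WT. Against WT the pooled ICM reads gave log2 ratios of -0.08 (-0.14 to -0.01) for NOTCH3 and -0.03 (-0.12 to 0.07) for JAG1, so the direction seen against I79 young was not kept. WT and I79 young cells also differed in genes of proliferation. Scaled with TMM, MKI67 read 32.1 and 37.85 CPM in WT and 194 CPM in I79 young. CDKN1A read 1163 and 1196 CPM in WT and 354 CPM in I79 young, and HMGB2 gave -2.23 on the log2 scale over shared genes. The part of this difference in the NOTCH3 and JAG1 ratios was not tested. NOTCH2, at 212 and 203 CPM after ICM, was close to the 201 CPM of I79 young (log2 ratio 0.05, -0.01 to 0.12) and above WT, at 92.1 and 113 CPM. NOTCH1 was at 19.4 and 16.5 CPM after ICM and at 27.5 CPM in both WT libraries. JAG2 had 20 and 11 reads and DLL1 6 and 3 reads in the ICM libraries, with intervals against I79 young of -0.21 to 2.05 and -1.20 to 3.33.

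By log2 CPM with a prior count of 2, NOTCH3, JAG1 and JAG2 were higher and HEY1 was lower by over 0.6 between ICM and I79 young, where 59.2% of 13744 genes were past 0.6 and 29.9% were lower by that much. HES1 was lower by that much too, but its 20, 2 and 3 reads are on average under the minimum of 10, and it was kept only through its 295 and 319 reads in WT. Between WT and I79 young 42.9% of genes were past 0.6, and between ICM and WT 57.8%. The changes of old and ICM-treated I79 cells share the I79 young table as control. On the same scale they were 0.64 and 0.62 for NOTCH3, 0.50 and 0.79 for JAG1, 1.83 and 0.73 for JAG2, -2.33 and -2.37 for HES1, -2.17 and -2.89 for HEY1, and 0.08 and 0.05 for NOTCH2. With ICM replicate 1 left out, NOTCH3 came to 0.57 and JAG2 to 0.46, both under 0.6. The ICM tables split reads by transcript region, and when only coding and noncoding reads of ICM were kept NOTCH3 came to 1.09, JAG1 to 1.00 and HES1 to -1.89, so the size of the NOTCH3 value rests on which reads are counted.

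**Figure D3:**
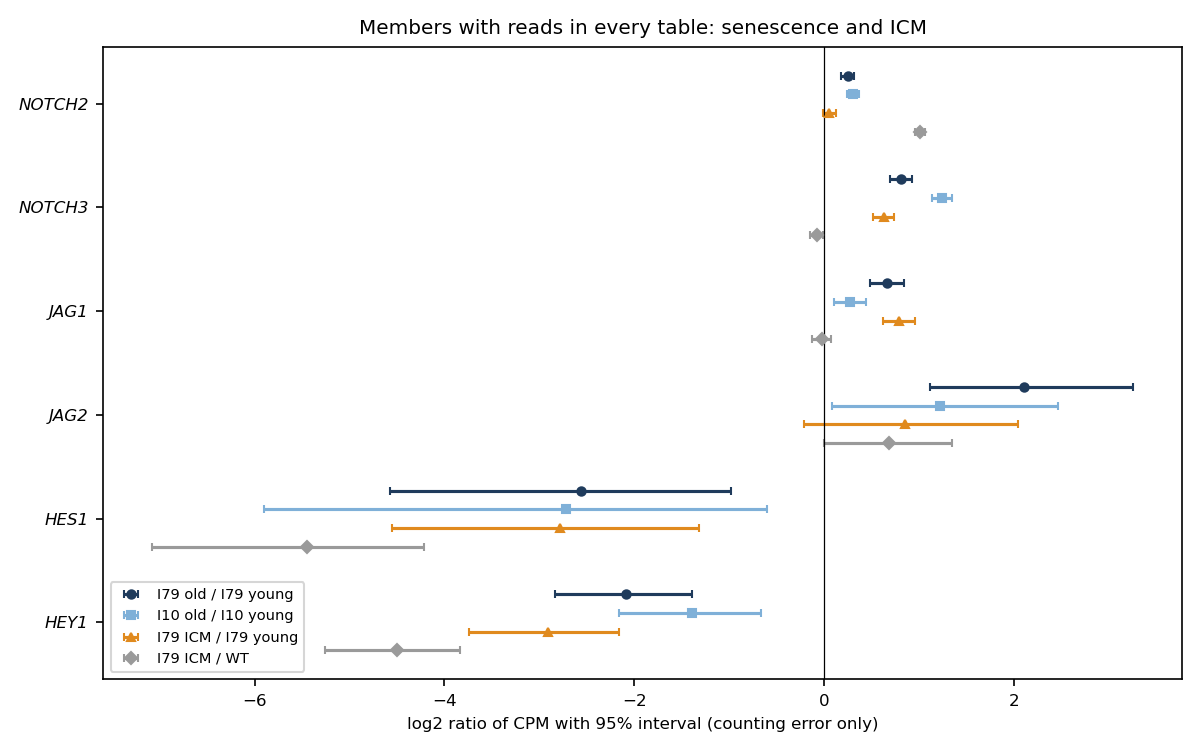
Log2 ratios of CPM for the 6 members that passed the filters in the old and young tables, in old cells of I79 and of I10 against young cells of the same isolate, and in ICM against I79 young and against WT; bars are 95% intervals for counting error only. HES1 and HEY1 lie left of 0 in all 4 ratios, NOTCH3 and JAG1 lie right of 0 in the first 3 and near 0 against WT.

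Levels of different members were compared per length, as TPM summed over the transcripts of a gene in the young and old tables and as RPKM on the length of the canonical transcript elsewhere. In each young and old table NOTCH2 was the highest member, at 26.1 to 34.2 TPM, followed by NOTCH3 at 10.9 to 23.5 and JAG1 at 8.14 to 13.4. HEY1 came next, at 5.16 and 2.50 TPM in young and at 0.977 and 0.812 TPM in old tables. In I79 old it lay under JAG2, at 1.15 TPM. HES1 was at 1.48 and 0.865 TPM in young and at 0.228 and 0.111 TPM in old tables, and DLL1 and HEYL were at or under 0.290 TPM throughout. In WT the order was another: NOTCH3 led with 11.7 ± 2.32 RPKM (SD, n = 2), before NOTCH2 with 8.47 ± 1.27, JAG1 with 8.13 ± 1.22, HEY1 with 7.48 ± 0.67 and HES1 with 5.57 ± 0.017. NOTCH2, JAG1 and HEY1 overlapped with each other in their libraries and cannot be ordered, whereas HES1 lay below all of them and above NOTCH1 at 2.71 ± 0.0089. In HMGB2 KD, NOTCH3 stood at 23.7 ± 4.85, JAG1 at 15.3 ± 0.73, HES1 at 13.6 ± 1.87 and NOTCH2 at 12.2 ± 1.30. The libraries of JAG1 and HES1 overlapped, as did those of HES1 and NOTCH2, and HEY1 stood at 5.42 ± 1.26. After ICM the order was NOTCH2 at 18.2 ± 0.56, NOTCH3 at 11.8 ± 0.56, JAG1 at 8.53 ± 0.037 and NOTCH1 at 1.87 ± 0.21, with every other member at or under 0.558 in each library.

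The split of reads among transcripts was estimated in the young and old tables. NOTCH2 and NOTCH3 were each carried by 1 full-length coding transcript, with 91.8% to 99.6% and 89.8% to 98.3% of the TPM of the gene. JAG1 was likewise mostly 1 coding transcript, at 85.1% to 87.1% in 3 tables and at 75.6% in I79 old. HES1 had a single transcript. For JAG2 the retained-intron transcripts took 66.3% of the TPM in I79 young and 77.9% in I10 old by their largest member, so the gene-level JAG2 values do not stand for coding RNA alone. The longest JAG2 coding transcript was estimated at 42.7 reads in I79 old and 9.51 in I10 old and at 0 in both young tables, and the other coding transcript at 5.73 and 4.12 reads in the young tables and at 0 in both old ones. At about 10 reads per young table these shares are imprecise.

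The other genes of the pathway came from lists of receptors, ligands, targets, the RBPJ transcription complex, proteases, glycosyltransferases and genes of ligand endocytosis and receptor turnover, 61 genes beside the members. After HMGB2 knockdown 1 of the 53 tested was called, a smaller share than the 5.20% of all genes. It was FURIN, the convertase that cuts Notch receptors on their way to the surface, rose by 0.70 on the log2 scale (standard error 0.14, adjusted p = 0.0063), with 144 and 147 CPM in WT libraries against 210 and 264. In old cells 9 of 53 tested were called higher and none was called lower. Over all genes 5.66% were called higher, and 559 of 15135 were called lower. MAML1, NEURL1B and TLE3 gave -0.71, -0.91 and -1.12 (adjusted p = 0.012, 0.013 and 0.017, edgeR) and were not called. The median log2 fold change over the 53 was 0.00 and over all genes -0.01.

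The strongest of these in old cells was DLL4, a Delta-like ligand typical of vessel sprouts. It read 0.640 CPM in young and 9.12 CPM in old I79 cells, and 0.521 and 4.86 CPM in those of I10, from 10, 168, 10 and 88 reads. Both old tables were far above both young tables, with a log2 fold change of 3.52 (standard error 0.33, adjusted p = 0.0055). Since DLL4 marks endothelium, the endothelial markers were read with it. Of 4 tested, 1 was called, TEK, with a log2 fold change of 1.24 (adjusted p = 0.0048, edgeR). VWF had a larger one of 2.69 and rose in both isolates, but its adjusted p of 0.013 (edgeR) missed the threshold. TIE1 gave 0.32 and was higher in old cells of I79 alone. EGFL7 gave 0.28 and was higher in those of I10 alone, and neither was called. CDH5 was at 0. The sum over the 8 markers in the tables was 115 and 82.0 CPM in young and 231 and 167 CPM in old cells. That sum is over shared genes, and most of it was TEK itself, which scaled with TMM read 95.3 and 66.0 CPM in young and 214 and 165 CPM in old cells. Their part in the DLL4 result was not tested. DLL4 was far higher in the knockdown experiment, at 113 and 120 CPM in WT libraries against 166 and 177 CPM after knockdown, and its change of 0.56 on the log2 scale (standard error 0.13, adjusted p = 0.012) was not called. The WT level was 7.27 higher on the log2 scale than in I79 young over shared genes. RGS5, a pericyte marker, had 20231 and 16658 reads in WT and 284 in I79 young, so the WT and I79 young values differ in more than the Notch genes. These tables were counted in different ways, and differences of culture and of counting cannot be told apart here. ICM libraries had 1 and 4 reads of DLL4.

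RBPJ, the DNA-binding partner of all Notch receptors, rose in old cells (I79 242 to 442 CPM, I10 233 to 413 CPM), by 0.85 on the log2 scale (standard error 0.11, adjusted p = 0.0097). WT libraries held it at 142 and 143 CPM, and knockdown libraries at 140 and 122 CPM (log2 fold change -0.12, adjusted p = 0.64). MAML2, a Mastermind-like co-activator, read 53.1 and 53.3 CPM in young and 40.8 and 38.9 CPM in old cells, which gave -0.42 (standard error 0.10, adjusted p = 0.040). Among the proteases, ADAM10, which makes the first cut after ligand binding, rose by 1.18 (standard error 0.12, adjusted p = 0.0058), and APH1B, a gamma-secretase subunit, rose by 1.26 (standard error 0.15, adjusted p = 0.0073). RFNG, a Fringe glycosyltransferase that tunes ligand choice, rose by 0.96 (adjusted p = 0.0070).

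Among genes of endocytosis and turnover, 4 of 16 were called higher in old cells, compared with 5.66% of all genes. Others changed without a call, such as ITCH at 0.46 and NEURL1B at -0.91. Nothing particular to the list was tested. NEDD4, a ubiquitin ligase, had the largest log2 fold change at 1.40 (standard error 0.14, adjusted p = 0.0060). MIB2, a ubiquitin ligase that promotes ligand endocytosis, rose by 1.14 and DTX4 of the Deltex family by 1.01 (adjusted p = 0.0059 and 0.0073). NUMB, an adaptor that antagonises Notch receptors, rose by 0.84 (adjusted p = 0.0075). HES4, a further HES family gene, read 1.15 CPM in young and 6.57 CPM in old I79 cells and 1.25 and 3.81 CPM in those of I10, opposite to HES1, with a log2 fold change of 2.05 (standard error 0.36, adjusted p = 0.018) that was not called. In the knockdown HES4 read 22.4 and 26.2 CPM in the WT libraries, against 29.1 and 42.2 after knockdown (log2 fold change 0.55, adjusted p = 0.056). NRARP, a feedback target of the receptors, had at most 3 reads in any young or old table and between 20 and 39 reads in the knockdown experiment, where its log2 fold change was 0.24 (adjusted p = 0.83). NOTCH4, the remaining receptor, had 0 reads in WT and HMGB2 KD and between 6 and 24.1 estimated reads in the young and old tables. Culture and counting cannot be told apart in this difference.

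**Figure D4:**
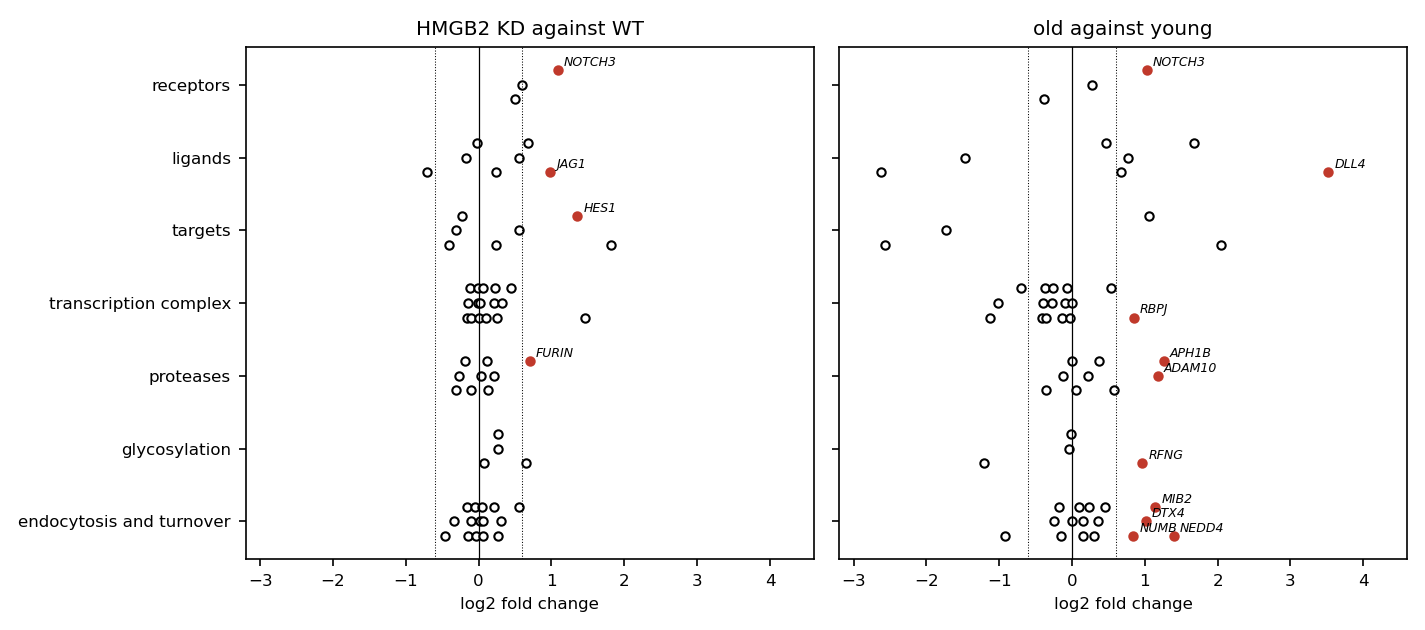
Log2 fold change of every tested Notch pathway gene by role, in HMGB2 KD against WT (left) and old against young cells (right); each point is a gene, filled and named where called, and dotted lines mark 0.6 in size. In the knockdown the called genes are NOTCH3, JAG1, HES1 and FURIN, and in old cells NOTCH3 and 9 other genes, all to the right of 0.

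The genes whose profile was most like that of a member were named by Pearson r over 8 points, the 4 young and old tables and the 4 WT and HMGB2 KD libraries, each set centred on its mean, among 12700 genes tested in both fits. The 8 points carry only 2 contrasts, and the values are a description. For NOTCH3 they were FKBP9, MYO1E and CPA4 (r = 0.995, 0.992 and 0.992), for JAG1 CTHRC1, BTBD10 and FAM241A (r = 0.996, 0.994 and 0.986), and for HES1 TOR3A, MEF2C and C1QTNF6 (r = 0.993, 0.987 and 0.986). CTHRC1, which encodes a secreted matrix protein, had log2 fold changes of 1.12 after HMGB2 knockdown and 0.53 in old cells, beside 0.98 and 0.47 for JAG1. MEF2C, a transcription factor of muscle and vessel development, had 0.88 and -1.34, beside 1.35 and -2.57 for HES1.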

How the data were processed

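Poly(A)-selected RNA libraries of IMR90 cells were grouped by sample title into 7 groups. Per the labels, the submitters' processing notes name STAR 2.6.0c, featureCounts, DESeq2 and the build GRCh37. Raw counts per gene, as the authors deposited them, were used for each WT and HMGB2 KD library; those tables end in rows of unassigned reads (16.9% to 18.0% of counts), which were left out of library sizes and tests. For the young and old groups the authors deposited estimated counts and TPM per transcript, 1 table per group; these were summed per gene with GENCODE v44lift37 (97.7% of identifiers matched) and rounded, and TPM values were used only to compare genes. For ICM the authors deposited read counts per gene split by transcript region, which can be fractional and are treated as estimated counts, and their regions were summed. Columns of the authors' own fold changes and p-values were not used.

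edgeR 4.0.16 in R 4.3.3 (TMM, filterByExpr, glmQLFit, glmQLFTest, Benjamini-Hochberg over all genes tested) was fitted to WT against HMGB2 KD and, with isolate as covariate, to old against young. Calls needed an adjusted p under 0.01 and a log2 fold change over 0.6 in size, as in the study's methods; its RUVs step was not repeated. The fits were tested on simulated data. Genes with a mean of 10 or more reads entered the ICM comparison. Intervals are exact Clopper-Pearson at 95% and, like floors of 3 reads, cover counting error only. Named genes were all members, called genes of the pathway lists (up to 12 per comparison), NOTCH4, DLL4, RBPJ, MAML2, HES4, NRARP, HMGB2, and the 3 genes most like NOTCH3, JAG1 and HES1. RGS5, MYH11, CDH5, VWF, TIE1, EGFL7, NOTCH2NLA, MAML1, NEURL1B, TLE3, ITCH, MKI67 and CDKN1A were named after their values were seen. The members and lists were chosen with earlier results of these data known. NOTCH1 got no value in the young and old tables because its canonical transcript is not listed there under its annotated identifier. Alternatives covered scaling (RLE, plain totals), DESeq2 1.42.0, the low-count filter, the threshold, a replicate block, the isolate covariate, counts from TPM and length, prior counts, controls, and leaving out single libraries.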

Additional observations from a re-analysis of the deposited data

How the results depend on the processing

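In HMGB2 KD against WT, 3 members were called under RLE scaling and plain library totals, and 4 under DESeq2, with no filter on low counts, at an adjusted p under 0.05 and with replicate numbers as a block; the fourth was HEYL. Leaving out 1 library at a time gave 2 to 4 members and 312 to 999 called genes in place of 797, the lowest without HMGB2 KD replicate 2. The replicate block called 1243 genes. The replicate numbers share only a number: the replicate differences of the 2 groups correlated at 0.124, with 2 pairs. JAG2 changed sign when 1 library was left out, from -0.38 without HMGB2 KD replicate 2 to 0.20 without WT replicate 2 and 0.25 without HMGB2 KD replicate 1.

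In old against young, 1 member (NOTCH3) was called by TMM, RLE, DESeq2, without the isolate covariate and with counts from TPM and length. Plain library totals called 2 members and 3147 genes in place of 1415, 1026 higher and 2121 lower against 856 and 559, with the median of all genes at -0.22; NOTCH3 then gave 0.81. DESeq2 called 2159 genes. No filter on low counts called 4 members and 4250 genes, and an adjusted p under 0.05 called 3 members and 3847 genes. The values of single isolates kept their sign for each of the 6 members, and no test was possible with 1 isolate. The count of members past 0.6 between ICM and I79 young (HES1 among them, which passed the minimum only through WT) ranged from 3 to 5 without 1 ICM library. It was 5 with coding and noncoding reads only, where NOTCH3 moved from 0.62 to 1.09, and NOTCH3 and JAG1 came to -0.060 and -0.010 with WT as control. The cause of these differences was not tested. Depth limits JAG2, DLL1, HEYL and, outside the knockdown experiment, HES1.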
